A study of Mus musculus with 10 samples.

Results

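Long noncoding RNAs (lncRNAs) that carry small nucleolar RNAs (snoRNAs) in their introns were examined in mouse lung tumors treated with liraglutide or vehicle. The group comprised 10 genes out of 55401 in the count table: Zfas1, 2410006H16Rik, Gas5, Snhg1, Snhg3, Snhg5, Snhg6, Snhg8, Snhg12 and Epb41l4aos. These genes were selected on the treatment difference itself, in which Zfas1 and 2410006H16Rik were lower, so the treatment values below are a description and carry no test. Of the 10 genes, 9 passed the filter on low counts and Snhg3 had no counts.

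The tumors were subcutaneous flank tumors of KPN1.1, a single mouse lung adenocarcinoma line. All hosts were male C57BL/6J mice made obese on a diet with 60% of calories from fat, and were 7 to 17 weeks old at injection of 75000 cells. The 10 tumors in the count table came from 5 mice given PBS (vehicle) and 5 mice given the glucagon-like peptide receptor agonist liraglutide at 0.2 μg per gram body weight daily by intraperitoneal injection, and tumors were collected 19 to 22 days after injection. One flash-frozen fragment per tumor gave 1 library of ribosomal RNA-depleted RNA, so each library held tumor cells together with host cells, and fewer cells of a type cannot be told apart from less RNA per cell. Total counts ranged from 9927942 to 14480593 per tumor, and 3 counts corresponded to 0.207 to 0.315 counts per 1000000 library counts (CPM).

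snoRNAs guide the chemical modification of ribosomal RNA: box C/D members direct ribose methylation and box H/ACA members direct pseudouridylation. They are mostly cut from the introns of a host transcript, and the spliced exons of many lncRNA hosts are removed by nonsense-mediated decay, a pathway coupled to translation. Many hosts begin transcription at a terminal oligopyrimidine (TOP) tract, a C followed by pyrimidines, as ribosomal protein genes do, and TOP mRNAs are translated under the control of mTOR.

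The start regions of the hosts are shown to see which of them carry such a tract near the annotated start. RefSeq promoters on GRCm38.p6 matched 8 of the 10 genes. Each line gives 80 bases, 50 before the annotated start and 30 from it on, 5′ to 3′ on the gene's strand, with capitals marking a tract of C and at least 4 further C or T whose first C lies within 5 bases of the annotated start. Zfas1 (chr2:167062884-167062963, plus strand) and 2410006H16Rik (chr11:62602827-62602906, plus strand) come first, followed by the downstream of 2 annotated Gas5 starts (chr1:161035116-161035195, plus strand), Snhg1 (chr19:8723437-8723516, plus strand), Snhg5 (chr9:88522868-88522947, minus strand), Snhg8 (chr3:123508307-123508386, minus strand) and Snhg12 (chr4:132308628-132308707, plus strand).
Zfas1: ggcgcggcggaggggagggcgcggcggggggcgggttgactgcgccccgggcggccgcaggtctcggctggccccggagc
2410006H16Rik: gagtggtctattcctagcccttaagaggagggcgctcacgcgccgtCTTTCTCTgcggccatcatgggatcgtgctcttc
Gas5: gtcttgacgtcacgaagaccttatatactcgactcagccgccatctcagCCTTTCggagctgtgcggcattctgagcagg
Snhg1: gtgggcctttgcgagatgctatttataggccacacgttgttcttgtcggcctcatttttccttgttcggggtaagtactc
Snhg5: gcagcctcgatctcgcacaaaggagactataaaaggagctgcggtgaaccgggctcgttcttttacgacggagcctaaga
Snhg8: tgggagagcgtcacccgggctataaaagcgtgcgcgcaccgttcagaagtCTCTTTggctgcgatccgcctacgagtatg
Snhg12: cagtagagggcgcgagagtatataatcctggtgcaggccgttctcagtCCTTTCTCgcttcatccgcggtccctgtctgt

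The tract was present at 5 of the 9 annotated starts of these genes, namely 2410006H16Rik, the downstream Gas5 start, Snhg3, Snhg8 and Snhg12. It was present at 18.3% of all 32851 promoters in the table and at 30 of 68 promoters (44.1%) of ribosomal protein genes. The Zfas1 start had no such tract within this window. The letters TATA, which read the same on both strands, lay between 40 and 16 bases before the start of Gas5 (downstream start), Snhg1, Snhg5, Snhg8 and Snhg12, against 5.91% of all promoters. Both searches were chosen after the sequences were seen and describe letters near an annotated start, not a measured start or a bound factor.

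Per kilobase of annotated exon, Gas5 was the most abundant of these lncRNAs in vehicle tumors, at 55.9 ± 5.00 CPM per kilobase (SD, n = 5), and its lowest tumor (48.7) lay above every tumor of every other member. 2410006H16Rik (24.5 ± 4.15), Snhg8 (21.2 ± 4.76), Snhg1 (19.6 ± 4.77) and Zfas1 (17.2 ± 2.00) followed in CPM per kilobase, and each overlapped its neighbour in this order. Snhg5 stood at 12.3 ± 1.70 CPM per kilobase, below the lowest Zfas1 tumor in all 5 vehicle tumors. Snhg12 (7.57 ± 1.85), Snhg6 (4.95 ± 0.715) and Epb41l4aos (4.18 ± 0.865) were the least abundant in CPM per kilobase and also overlapped their neighbours. Exon lengths came from GENCODE M39 and retain introns of some transcripts, so this order depends on that annotation.

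Zfas1 and 2410006H16Rik were the only members whose tumors did not overlap between groups. Zfas1, which starts 1349 bases from the start of the zinc finger gene Znfx1 on the opposite strand and holds 3 snoRNA genes, lies on chromosome 2 from 166903619 to 166907799 (GRCm39). It was measured at 62.3, 76.0, 57.7, 59.2 and 68.3 CPM in vehicle tumors 1 to 5 and at 46.5, 54.1, 37.6, 38.0 and 37.4 CPM in liraglutide tumors 1 to 5. The highest liraglutide tumor was number 2, and it remained below the lowest vehicle tumor, number 3. The log2 fold change of Zfas1 was -0.60 (SE 0.13), a level 34.0% lower with liraglutide.

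2410006H16Rik, the host of Snord49a, Snord49b and Snord65, lies on chromosome 11 from 62493536 to 62495725 (GRCm39). Its 5 vehicle tumors held 46.4, 67.1, 47.6, 48.0 and 58.9 CPM, and its 5 liraglutide tumors held 29.7, 43.0, 28.1, 27.5 and 23.6 CPM. Liraglutide tumor 2 was again the highest of its group and vehicle tumor 2 the highest of all. The log2 fold change was -0.82 (SE 0.17), the most negative among the members. All 2190 exonic bases of this gene lie inside exons of Lrrc75a on the opposite strand. The library kit kept strand, while the strand setting of the counting was not given in the sources used here. Lrrc75a had fewer counts than 2410006H16Rik in 9 of 10 tumors, and was at 20.8 ± 5.44 CPM in vehicle and 21.0 ± 4.95 CPM in liraglutide tumors (SD, n = 5 each).

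Across all 17464 genes tested, all 5 liraglutide tumors lay below all 5 vehicle tumors for 155 genes (0.888%), and 2 of the 9 members were among them. That count uses the contrast by which the members were chosen. edgeR's quasi-likelihood test called no gene at an adjusted p below 0.05 (0%), and 1675 genes had an unadjusted p below 0.05. DESeq2 called 27 genes, 21 of them lower with liraglutide (0.292% of the 7201 genes to which it gave an adjusted p). It gave none to the other tested genes, Snhg12 and Epb41l4aos among them, and since the members were chosen by this contrast their own calls are not given.

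**Figure D1:**
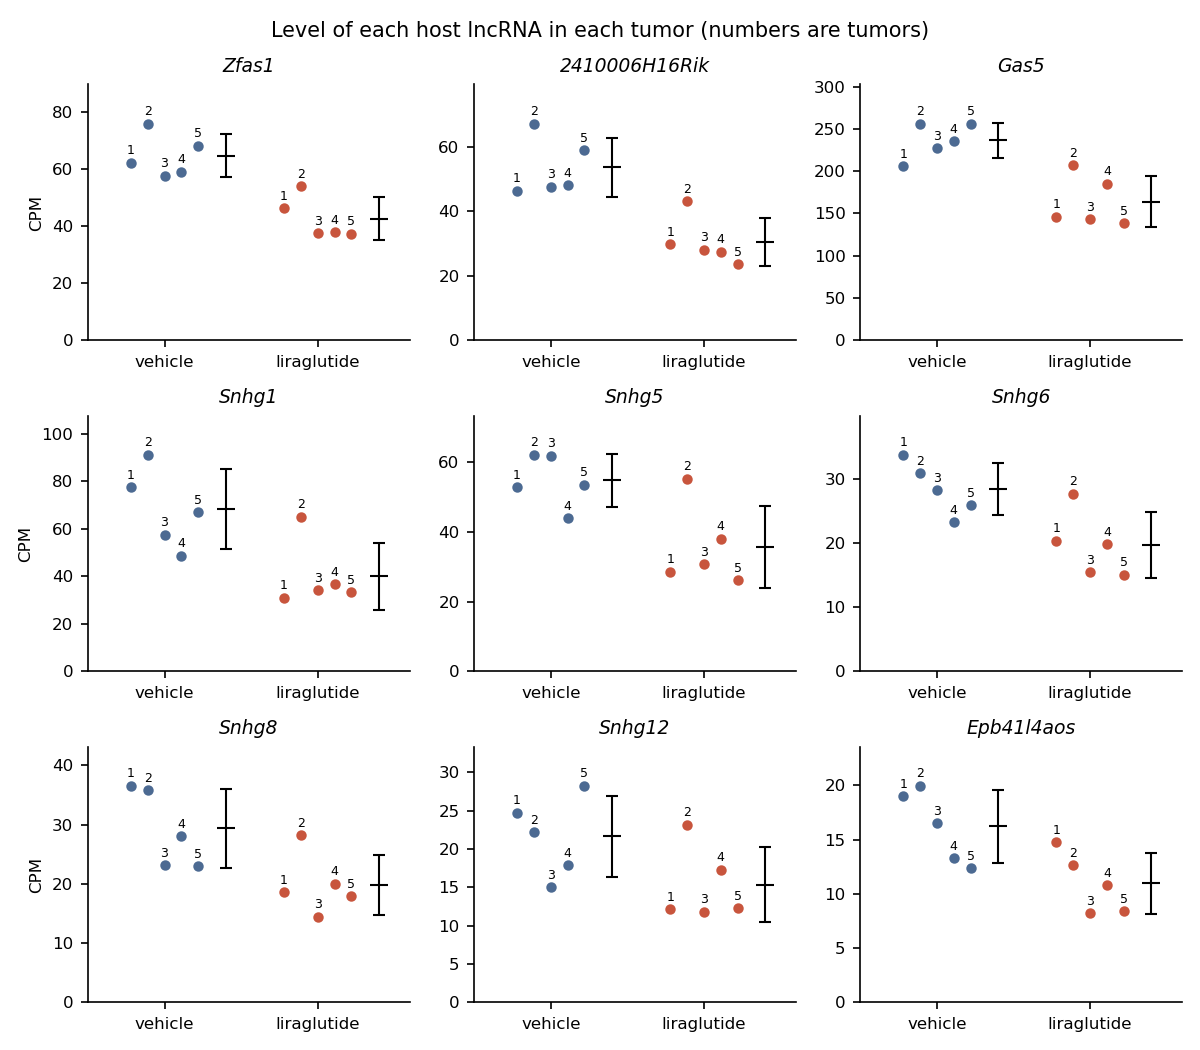
CPM of each of the 9 tested lncRNAs (vertical axes, starting at 0) in 5 vehicle and 5 liraglutide tumors. Points are tumors labelled by number, and the black mark with bars is the mean ± SD. The groups did not overlap for Zfas1 and 2410006H16Rik and overlapped for the other 7 lncRNAs, and liraglutide tumor 2 was the highest of its group in 8 of the 9 panels.

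Gas5 and Snhg1 hold the largest sets of snoRNA genes. Gas5, named for its rise in growth-arrested cells, holds box C/D snoRNA genes at 9 distinct loci and lies on chromosome 1 from 160861793 to 160866118. Its levels were 206.1, 256.3, 227.5, 235.5 and 256.3 CPM in vehicle tumors and 146.3, 206.8, 143.7, 185.1 and 138.3 CPM in liraglutide tumors, a log2 fold change of -0.53 (SE 0.13). Only liraglutide tumor 2 reached into the vehicle range, just above vehicle tumor 1.

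Snhg1, on chromosome 19 from 8700319 to 8703812, holds 8 snoRNA genes including Snord22. Vehicle tumors were at 77.4, 91.2, 57.5, 48.7 and 66.9 CPM, and liraglutide tumors at 31.0, 65.1, 34.0, 36.7 and 33.4 CPM. The other 4 liraglutide tumors lay between 31.0 and 36.7 CPM, and tumor 2 stood apart inside the vehicle range. The log2 fold change was -0.77 (SE 0.23), and it was -1.01 without liraglutide tumor 2.

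Snhg5, Snhg6 and Snhg8 each hold 1 or 2 snoRNA genes. Snhg5, the host of Snord50a and Snord50b on chromosome 9 (88377321 to 88405615), was at 52.8, 62.1, 61.8, 43.8 and 53.5 CPM in vehicle tumors and at 28.6, 55.3, 30.8, 38.1 and 26.2 CPM in liraglutide tumors. Its log2 fold change was -0.62 (SE 0.20), and liraglutide tumor 2 exceeded 3 of the vehicle tumors. Snhg6, the host of Snord87 on chromosome 1 (9926809 to 10014504), was at 33.9, 30.9, 28.2, 23.3 and 26.0 CPM and at 20.4, 27.8, 15.5, 19.8 and 15.1 CPM in the respective groups, with a log2 fold change of -0.53 (SE 0.18). Liraglutide tumor 2 was the single tumor of its group inside the vehicle range. Snhg8, the host of the box H/ACA RNA Snora24 on chromosome 3 (123301192 to 123302578), was at 36.6, 35.9, 23.2, 28.1 and 23.1 CPM and at 18.6, 28.2, 14.5, 20.0 and 17.9 CPM, with a log2 fold change of -0.57 (SE 0.20). Again 4 of 5 liraglutide tumors lay below every vehicle tumor.

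For Snhg12 and Epb41l4aos 3 of 5 liraglutide tumors lay below every vehicle tumor, the fewest among the tested members. Snhg12, on chromosome 4 (132035905 to 132038762), was at 24.7, 22.2, 15.0, 17.9 and 28.3 CPM in vehicle tumors and at 12.2, 23.2, 11.8, 17.3 and 12.3 CPM in liraglutide tumors. Its log2 fold change of -0.50 (SE 0.23) was the nearest to 0 among the members, and liraglutide tumors 2 and 4 lay inside the vehicle range. Epb41l4aos lies on chromosome 18 and shares 1726 of its 3882 exonic bases with Epb41l4a on the opposite strand. It was at 19, 20.0, 16.5, 13.3 and 12.4 CPM in vehicle tumors and at 14.8, 12.7, 8.19, 10.8 and 8.41 CPM in liraglutide tumors, with a log2 fold change of -0.57 (SE 0.20). Here liraglutide tumor 1, not tumor 2, was the highest of its group. Epb41l4a itself was at 27.5 ± 10.5 CPM in vehicle and 43.6 ± 10.3 CPM in liraglutide tumors.

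Snhg3 had 0 counts in all 10 tumors, as did both snoRNA genes inside its span, Snora73a and Snora73b. At these depths 3 counts would have been 0.207 to 0.315 CPM. In GENCODE M39, 633 of its 986 exonic bases lie in exons of Rcc1 on the same strand and 705 in exons of the lncRNA Gm17300 on the opposite strand. Rcc1, the chromatin-bound exchange factor for Ran, was measured at 28.6 ± 7.40 CPM in vehicle tumors. Whether the handling of read pairs that touch more than 1 gene set the Snhg3 counts to 0 was not tested, and no statement on Snhg3 expression can be drawn.

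**Figure D2:**
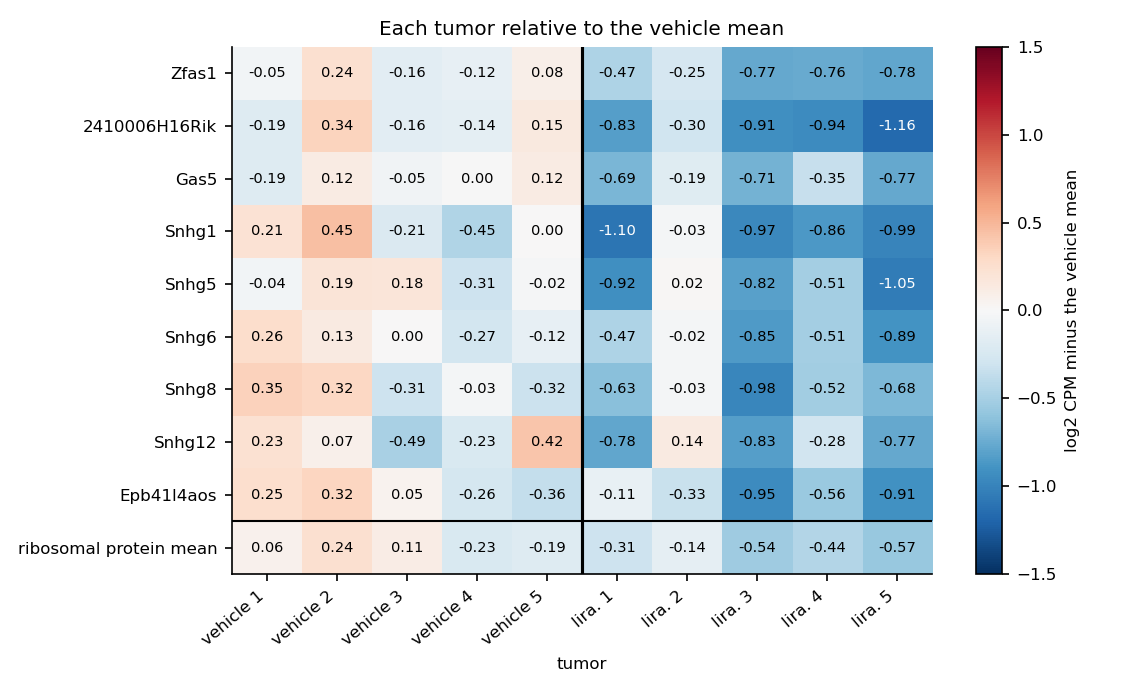
log2 CPM of each lncRNA in each tumor minus the vehicle mean of that lncRNA (color scale and printed values), with the mean of 78 ribosomal protein genes in the bottom row. Liraglutide tumors 3 and 5 were below the vehicle mean by 0.68 to 1.16 in every lncRNA row, while liraglutide tumor 2 ranged from -0.33 to 0.14.

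Some tumors recurred at the top of a group across members. Liraglutide tumor 2 was the highest liraglutide tumor for 8 of 9 members, and liraglutide tumors 3 and 5 were the lowest for 3 and 5 members. Among vehicle tumors, number 2 was the highest for 6 members whereas the lowest was number 4 for 3 members and numbers 1, 3 and 5 for 2 members each. Leaving out liraglutide tumor 2 moved the median log2 fold change of the 9 members from -0.57 to -0.69.

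The 9 tested members had log2 fold changes between -0.82 and -0.50, with a median of -0.57, against a median of -0.02 over all 17464 tested genes. All 9 were below 0, as were 52.6% of all tested genes. The 78 tested cytoplasmic ribosomal protein genes were also all below 0, with a median of -0.39 and a range from -0.79 (Rps7) to -0.15 (Rpl28). None passed edgeR's test, and DESeq2 called 4 of the 76 to which it gave an adjusted p, including Rpl39 and Rps27a. Rpl39 was the second lowest at -0.78 (SE 0.17). Their mean log2 CPM was 8.39 ± 0.20 in vehicle and 7.99 ± 0.18 in liraglutide tumors (SD, n = 5 each), and 4 of 5 liraglutide tumors lay below every vehicle tumor. Relative to that mean, taken in the same tumor, all 9 lncRNAs were still lower with liraglutide, by 0.11 (Snhg12) to 0.43 (2410006H16Rik) on the log2 scale, but the groups overlapped for every member. For Zfas1 this relative log2 level was -2.37 ± 0.21 in vehicle and -2.58 ± 0.08 in liraglutide tumors.

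**Figure D3:**
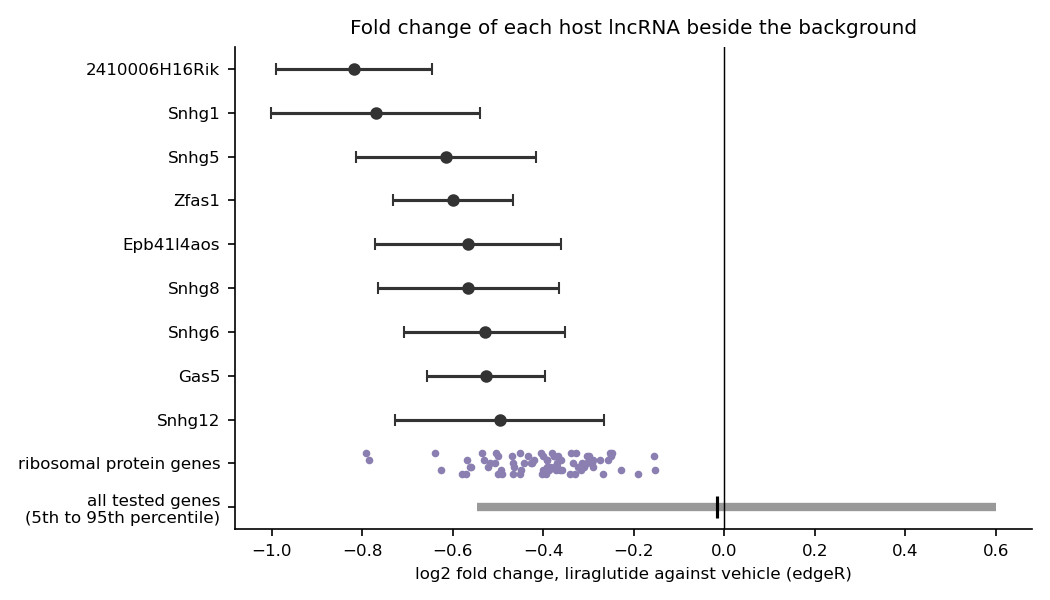
log2 fold change with its standard error for the 9 lncRNAs (black), beside the fold changes of 78 ribosomal protein genes (purple points) and the 5th to 95th percentile of all tested genes (grey bar, -0.55 to 0.60, with the median marked). The lncRNAs spanned -0.82 to -0.50 and the ribosomal protein genes -0.79 to -0.15.

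Other snoRNA hosts had medians nearer to 0 than the members. The choice of the members on this contrast favors that order by itself. Of 20 further tested lncRNA genes that hold a snoRNA gene, 15 had a log2 fold change below 0, with a median of -0.11, and none passed in edgeR or among the 3 with an adjusted p in DESeq2. Snhg4 was the lowest at -0.61 (SE 0.19), followed by 1110038B12Rik at -0.42 (SE 0.16), and Gm26973 was the highest at 0.50 (SE 0.41). The list of 8 other tested Snhg genes, which shares members with that set, had 7 below 0 and a median of -0.19, with Snhg4 and Snhg10 (-0.46, SE 0.29) the lowest and Snhg14 (0.02, SE 0.35) the highest. Of 193 protein coding hosts other than ribosomal protein genes, 125 were below 0 and the median was -0.10. Ribosomal protein genes with a snoRNA (30 genes, median -0.38) and without one (48 genes, median -0.40) had similar medians. The 1754 tested lncRNA genes that were not members had a median of 0.00, and 50.3% of them were below 0.

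Genes that act on snoRNAs or on host transcripts were counted in the same way, and none of the 41 tested passed in edgeR, nor any of the 32 with an adjusted p in DESeq2. All 8 snoRNP core protein genes were below 0 (median -0.27), led by Nop58, a box C/D core protein, at -0.40 (SE 0.10) and Nhp2, an H/ACA core protein, at -0.34 (SE 0.12). Nop58 was at 166.4 ± 9.60 CPM in vehicle and 126.5 ± 16 CPM in liraglutide tumors. Of 10 snoRNP assembly factor genes, 9 were below 0 (median -0.22), with Nopchap1 at -0.33 (SE 0.28) and Znhit3 at -0.32 (SE 0.16) the lowest and Pih1d1 at 0.07 (SE 0.13) the highest. Nonsense-mediated decay genes were near the background, with 6 of 10 below 0 and a median of -0.06, from Smg9 at -0.20 (SE 0.12) to Smg8 at 0.07 (SE 0.12). Among 13 regulators of TOP RNAs, 8 were below 0 (median -0.14), with Eif4ebp1, a translational repressor under mTOR, at -0.41 (SE 0.21), the cap-binding protein gene Eif4e at -0.39 (SE 0.14) and the mTOR partner gene Mlst8 at 0.24 (SE 0.17).

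Variation between tumors of the same group was compared with the ribosomal protein mean, a measure that the choice of members did not use. Group means were subtracted, and 9 correlations over 10 tumors were tested by exact two-sided permutation within groups, with Benjamini-Hochberg adjustment over the 9. All 9 values of Pearson's r were above 0, as were 50% of those of all 17464 tested genes. An unadjusted exact p below 0.05 with r above 0 was found for 5 of 9 members and for 18% of all tested genes. Epb41l4aos (r = 0.86, exact p = 0.00653, adjusted p = 0.0294, rho = 0.73, exact p = 0.0263), Snhg6 (r = 0.86, exact p = 0.00201, adjusted p = 0.0181, rho = 0.78, exact p = 0.0128) and Snhg5 (r = 0.74, exact p = 0.0133, adjusted p = 0.0400, rho = 0.75, exact p = 0.0165) passed. None of the 9 passed after adjustment when Spearman's rho was used, with adjusted permutation p of 0.0741 for Snhg5 and Snhg6 and 0.0790 for Epb41l4aos. Zfas1 (r = 0.69, exact p = 0.0397, adjusted p = 0.0714, rho = 0.54, exact p = 0.103) and 2410006H16Rik (r = 0.62, exact p = 0.0699, adjusted p = 0.0898, rho = 0.43, exact p = 0.234) did not. The remaining 4 had r from 0.29 (Snhg12) to 0.72 (Snhg1) and adjusted permutation p from 0.0677 to 0.426.

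The groups did not contribute equally to these values. The 5 liraglutide tumors gave 48.8% (Epb41l4aos) to 64.9% (Snhg6) of the summed cross-products of deviations for Epb41l4aos, Snhg1, Snhg5, Snhg6 and Snhg8, against 77.6% for Zfas1 and 79.6% for 2410006H16Rik. For Gas5 and Snhg12 the share was above 100%, since the vehicle tumors contributed in the opposite direction. No r is given within a single group of 5 tumors, and whether r differs between the groups was not tested. Leaving out tumors also changed r unevenly between members. After group means were subtracted, liraglutide tumor 2 and vehicle tumor 4 were the 2 tumors farthest from the median of the ribosomal protein mean. Without these 2 tumors r was 0.90 for Epb41l4aos (adjusted permutation p = 0.0938), 0.71 for Snhg6 (adjusted permutation p = 0.211) and 0.39 for Snhg5 (adjusted permutation p = 0.666). It was 0.42 for Zfas1, 0.28 for 2410006H16Rik and -0.34 for Snhg12, and none of the 9 passed. Leaving out 1 tumor at a time kept r between 0.84 and 0.93 for Epb41l4aos, between 0.80 and 0.90 for Snhg6 and between 0.60 and 0.85 for Snhg5, while it ranged from 0.51 to 0.83 for Zfas1, from 0.39 to 0.79 for 2410006H16Rik and from -0.09 to 0.55 for Snhg12. The number of members that passed was 6 without vehicle tumor 3 and without vehicle tumor 5, and 1 without vehicle tumor 2, vehicle tumor 4, liraglutide tumor 2 or liraglutide tumor 4. It was 0 without liraglutide tumor 3 and without liraglutide tumor 5, where r of the 3 members that passed with all tumors was 0.69 to 0.86, so these calls were lost with little change in r.

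**Figure D4:**
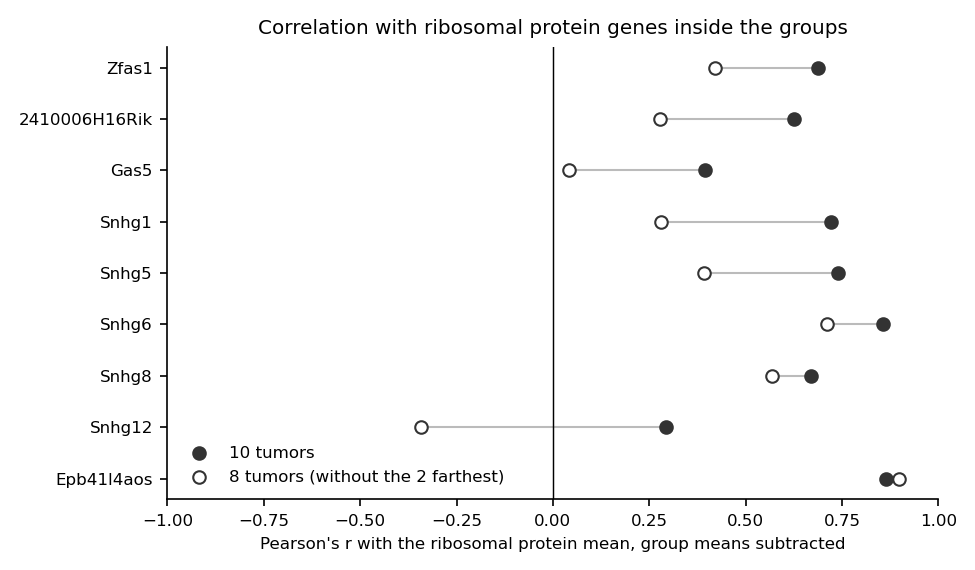
Pearson's r (horizontal axis) between each lncRNA and the mean of 78 ribosomal protein genes, in log2 CPM with group means subtracted, over 10 tumors (filled) and over 8 tumors without the 2 farthest (open). Epb41l4aos stayed at 0.86 and 0.90, whereas Snhg12 went from 0.29 to -0.34.

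Between members, all 36 pairs had r above 0 inside the groups, as did 50% of all pairs of tested genes. Their median r was 0.66, a value exceeded by 8.12% of all pairs of tested genes, with a range from 0.19 (Gas5 with Epb41l4aos) to 0.92. The pair with the highest r, Zfas1 with 2410006H16Rik, was the only pair to pass (exact permutation p = 0.00132, adjusted over 36 pairs p = 0.0475, n = 10), and its rho of 0.78 (exact permutation p = 0.00826, adjusted p = 0.138) did not. Without liraglutide tumor 2 and vehicle tumor 4 its r was 0.83. No pair passed without vehicle tumor 2, vehicle tumor 4, liraglutide tumor 1, 2, 3 or 5 in turn, or with TMM computed without ribosomal protein genes, and 2 pairs passed without vehicle tumor 3. All these values share the same libraries and scaling.

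The tested genes most like Zfas1 inside the groups, by Pearson's r over 10 tumors, were Cdc40 (r = 0.94), Topors (0.94), Gadd45a (0.94), Mysm1 (0.93) and a gene whose identifier had no match in GENCODE M39 (0.92). For 2410006H16Rik the 5 most alike genes included Bbs5 (r = 0.92), Zfas1 itself (0.92), Pabir1 (0.90) and Eif2s3x (0.89). The 100 genes most like Zfas1 held 4 of the 78 ribosomal protein genes and 1 other member, and those most like 2410006H16Rik held 5 and 2, while ribosomal protein genes made up 0.447% of all tested genes. Genes holding a snoRNA, members left out, numbered 6 and 5 in these sets and made up 1.39% of all tested genes. The median r of ribosomal protein genes with Zfas1 was 0.62, against 0.00 over all tested genes. These are rankings across genes, which are not independent.

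snoRNA genes inside the members were then set beside their hosts. GENCODE M39 places 36 snoRNA gene records wholly inside the 10 members on the same strand, at 34 distinct loci since Snord80 and Snora16a each have 2 overlapping records, 32 of the records in the count table, 6 at 0 in every tumor and 17 tested. None of the 17 passed edgeR's test, 16 were below 0, and the median log2 fold change was -0.45, while 97 of 135 other tested snoRNA genes were below 0 with a median of -0.24. Inside Zfas1, Gm23201 was at 3.42 ± 0.661 CPM in vehicle and 2.09 ± 0.658 CPM in liraglutide tumors, a log2 fold change of -0.71 (SE 0.27), and Gm25878 was at 1.54 ± 0.685 and 1.58 ± 0.305 CPM, 0.04 (SE 0.33). Inside 2410006H16Rik, Snord49b was at 4.98 ± 0.515 and 3.68 ± 0.873 CPM, -0.44 (SE 0.20), and Snord49a at 2.35 ± 0.623 and 2.31 ± 0.509 CPM, -0.03 (SE 0.25). The 2 tested snoRNA genes within each of these hosts had different values, with standard errors of 0.20 to 0.33, and the difference was not tested. Snord65 in 2410006H16Rik, with 4 to 12 counts per tumor, did not pass the filter. It was at 0.668 ± 0.0767 CPM in vehicle and 0.802 ± 0.289 CPM in liraglutide tumors. Snord12 in Zfas1 had 1 count in total. Inside Gas5, Gm22357 had the most counts, 94 to 171 per tumor, with a log2 fold change of -0.15 (SE 0.18). Snord78 and Gm26224 in the same host were at -0.21 (SE 0.15) and -0.33 (SE 0.22). Inside Snhg1, Snord22 was at -0.52 (SE 0.34), Gm24453 at -0.59 (SE 0.31) and Gm23246 at -0.59 (SE 0.40). Epb41l4aos holds Gm23639, at -0.59 (SE 0.33).

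Summed over the snoRNA genes of a host, the levels were lower with liraglutide by less than the host for Zfas1, 2410006H16Rik, Gas5 and Snhg1, by slightly more than the host for Snhg8 and Epb41l4aos, and higher for Snhg6. For 2410006H16Rik the sum was 8.0 ± 0.774 CPM in vehicle and 6.79 ± 1.58 CPM in liraglutide tumors, a log2 ratio of means of -0.24 against -0.82 for the host. Per 100 host CPM this was 19.1, 12.5, 17.7, 15.2 and 12 snoRNA CPM in vehicle tumors and 28.5, 15.6, 22.4, 29.2 and 18.9 in liraglutide tumors, so 3 of 5 liraglutide tumors lay above every vehicle tumor. For Gas5 the sum was 39.1 ± 4.12 and 32.6 ± 5.86 CPM (log2 ratio of means -0.26 against -0.53 for the host), and 3 liraglutide tumors had a higher snoRNA share than any vehicle tumor. For Snhg1 (-0.53 against -0.77) 2 did, and for Zfas1 (-0.44 against -0.60) none did. The sums of the other 3 hosts rested on few counts. For Snhg6, with 3 to 14 counts per tumor, the log2 ratio of means was 0.17 against -0.53 for the host. For Snhg8 (0 to 18 counts) it was -0.65 against -0.57. The count of 0 was in liraglutide tumor 5, against 8 to 10 in the other liraglutide tumors, and the order against the host rested on that tumor. For Epb41l4aos (15 to 50 counts) the log2 ratio of means was -0.58 against -0.57. No test was made because the host values chose the members. The 34 snoRNA gene records other than those of Snhg3 lie inside bases that M39 annotates as exon in some transcript of the host, and mature snoRNAs are shorter than most fragments of such libraries, so reads from mature snoRNA and from unspliced host cannot be told apart here.

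**Figure D5:**
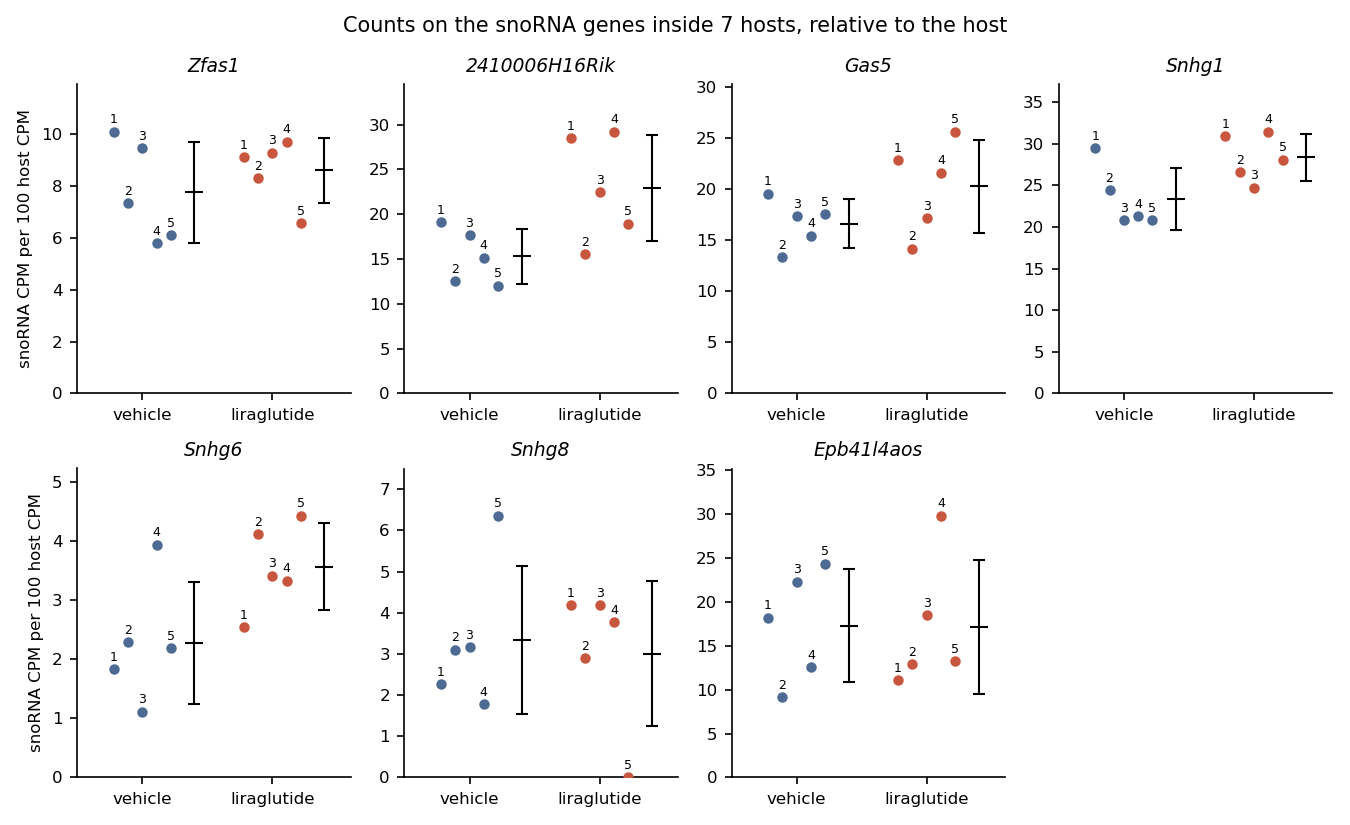
Summed CPM on the snoRNA genes inside each of 7 hosts per 100 CPM of the host (vertical axes, starting at 0) in each tumor, with the mean ± SD in black. The groups overlapped in all 7 panels, with means of 15.3 and 22.9 for 2410006H16Rik and of 17.3 and 17.1 for Epb41l4aos in vehicle and liraglutide tumors.

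Protein coding genes that start within 5 kb of a member's start were Znfx1 (Zfas1), Zbtb37 (Gas5), Slc3a2 (Snhg1) and Rcc1 (Snhg3), and none passed edgeR's test. Znfx1, which encodes a zinc finger protein and lies opposite Zfas1, was at 79.2 ± 24.6 CPM in vehicle and 100.3 ± 17.2 CPM in liraglutide tumors, a log2 fold change of 0.34 (SE 0.21), against -0.60 for Zfas1. Zbtb37 was at -0.10 (SE 0.16) and Slc3a2, the heavy chain of amino acid transporters, at -0.24 (SE 0.22). The 3 neighbours of tested members had fold changes nearer to 0 than the lncRNA beside them or of the other sign. The lncRNAs were chosen on this contrast, and the 5th to 95th percentile of all tested genes was -0.55 to 0.60. Most genes would therefore lie nearer to 0 than these lncRNAs, and the order says nothing particular about the neighbours.

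Marker genes of the cell types that a flank tumor can hold were summed in each tumor, and none of the 52 tested passed in edgeR, nor any of the 26 with an adjusted p in DESeq2. Lung adenocarcinoma and epithelial markers summed to 4690 to 10248 CPM in vehicle and 5036 to 7451 CPM in liraglutide tumors (means 6843 and 6383 CPM), mainly keratins and Cdh1, with 4 of 9 below 0 and a median of 0.27, while Epcam, Sftpc and Napsa each averaged under 3 CPM in both groups. All 6 proliferation markers had a log2 fold change below 0 (median -0.39), with sums of 920.0 to 1854 CPM and 1077 to 1769 CPM. Leukocyte markers summed to 103.0 to 190.0 CPM and 119.3 to 225.5 CPM, with 1 of 11 tested below 0 (median 0.26). Keratinocyte markers had the median farthest from 0, 2.96 on the log2 scale with 0 of 4 tested below 0, and summed to 8.36 to 18.8 and 6.65 to 224.0 CPM (means 12.5 and 74.2 CPM). Muscle markers followed with 0 of 6 below 0, a median of 0.72 and sums of 38.6 to 262.5 and 77.0 to 316.7 CPM. All 3 tested adipocyte markers were below 0, with a median of -0.71 and sums of 15.3 to 83.1 and 18.3 to 47.5 CPM. Fibroblast markers (1456 to 3554 and 1932 to 3635 CPM, median 0.19) and endothelial markers (90.0 to 144.6 and 92 to 119.0 CPM, median 0.00) had medians nearer to 0. The ranges of all 8 summed lists overlapped between groups. No marker in the table was at 0 in all 10 tumors. The part of these cell types in the lncRNA values was not tested.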

How the data were processed

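Strand-specific RNA-seq (dUTP) was measured in 10 tumors, 5 per group. The authors deposited raw gene counts, which per the study's methods came from reads aligned to GRCm39 with TopHat 2.0.13 and Bowtie 1.0.1 and counted with featureCounts, with samples filtered after quality assessment, while the submitters' processing notes list mm10 and GRCh38. The annotation release, strand setting and treatment of multi-gene reads were not given in the sources used here. Gene identifiers matched GENCODE M39 (GRCm39) without version for 51731 of 55401 genes (93.4%). edgeR 4.0.16 (R 4.3.3) filtered low counts (17464 genes kept), scaled by TMM and fitted the quasi-likelihood model, with Benjamini-Hochberg adjustment over all tested genes. Standard errors are the log2 fold change divided by the square root of the F statistic. log2 CPM used a prior count of 2. Correlations used log2 CPM with group means subtracted. DESeq2 1.42.0 and other scalings, filters and prior counts were alternatives. The scripts were tested on simulated data. Same-group tumors differed beyond sampling noise (chi-square per degree of freedom at least 9.21), so none was a repeated library. Nothing in the sources ties tumors to batches. Members and gene lists were chosen with earlier results of these data known. Named genes were all members, up to 3 of the most counted snoRNA genes per member, neighbours within 5 kb, the 5 genes most like Zfas1 and 2410006H16Rik, and the 2 lowest and 1 highest gene of each list. Some items are not reported here.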

Additional observations from a re-analysis of the deposited data

Results flagged for a closer look

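Snhg1 in liraglutide tumor 2 was at 65.1 CPM, far from the other 4 liraglutide tumors at 31.0 to 36.7 CPM, with a gap of 0.835 of the group's range against Dixon's critical value of 0.71 for 5 samples. It was the only one of 20 sets of 5 values checked (9 lncRNAs and the ribosomal protein mean in both groups) to stand apart, and chance gives about 1 in 20. The same tumor was the highest liraglutide tumor for 8 of 9 lncRNAs and had the highest ribosomal protein mean of its group, 8.25 on the log2 CPM scale. The cause was not tested.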

How the results depend on the processing

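The log2 fold changes of the 9 lncRNAs stayed below 0 and within 1 SD of the reported values in all 144 recomputations (9 lncRNAs under 16 alternatives), between -1.01 and -0.38, and the median of the members stayed between -0.69 and -0.48 when 1 tumor was left out. The number of genes called with treatment was 0 in every edgeR fit and 27 with DESeq2, and the cause of that difference was not tested. Of 135 recomputed correlations with the ribosomal protein mean, 133 were above 0. The number of members that passed was 0 without the 2 farthest tumors and ranged from 0 to 6 when 1 tumor was left out, although r stayed between 0.84 and 0.93 for Epb41l4aos and between 0.80 and 0.90 for Snhg6 in the latter fits. Snhg12 turned to -0.34 without the 2 farthest tumors and ranged from -0.094 (without liraglutide tumor 2) to 0.55 (without vehicle tumor 5) when 1 tumor was left out. The number of pairs that passed was 0 without the 2 farthest tumors, 0 with TMM computed without ribosomal protein genes, and 0 to 2 when 1 tumor was left out. With 8 tumors the smallest permutation p is 0.00174. The labels number the tumors 1 to 5 in both groups, but same-numbered tumors did not deviate together in every pair (correlations of 0.35, 0.57, -0.08, 0.07 and 0.39 for numbers 1 to 5), and only number 2 correlated best with its own number. With the replicate number as a block, edgeR called 0 genes and the median log2 fold change of the members was -0.58. The 5 tumors per group and 108 or more counts per tested member set the precision.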
